A study of Arabidopsis thaliana with 12 samples.

Results

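The genes described here are those of the mitochondrial genome of Arabidopsis thaliana. They were found as the probe sets that the annotation of the array, or the tables of the study, assign to a single gene of that genome. The rule gave 24 of 22746 tested probe sets, which stand for 17 genes. RNA of unopened flower buds and of leaves, both newly emerged on side branches, had been hybridized to 12 ATH1 arrays, in 4 groups of 3 arrays, the buds of the scion, the buds of the rootstock, and the leaves of either. All plants were Col-0 without any transgene or treatment other than the graft. Each cut inflorescence stem had been set back as scion on the stem of the same plant, so scion and rootstock share 1 genotype, and the organs were taken 10 to 20 days after grafting. The methods describe the replicates as independent and say that the grafted plants with the best scion growth were chosen. Ungrafted stems were not part of the design, so grafting and position on the stem cannot be told apart.

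The mitochondrial genome of plants keeps a small share of the genes that mitochondria need, and the nucleus encodes the rest. What it keeps is mainly subunits of the respiratory chain, a set of genes for the maturation of c-type cytochromes, ribosomal proteins, and many open reading frames without an assigned function. Respiratory complex I (NADH dehydrogenase) and complex IV (cytochrome c oxidase) are built from subunits of both genomes. Their mitochondrial transcripts are spliced, edited and trimmed at their ends, mainly by proteins imported from the cytosol. Flower buds are a tissue of interest for these genes because the tapetum of the anther is rich in mitochondria, and rearranged mitochondrial open reading frames are a known basis of cytoplasmic male sterility.

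Complex I supplied 15 of the 24 probe sets. Of these 7 are annotated to nad1, 2 to nad5 and 1 each to nad2, nad4, nad4L, nad6, nad7 and nad9, of which nad7 and nad9 belong to the matrix arm of the complex and the others to its membrane arm. Complex IV supplied cox1, the catalytic subunit, and cox2, the subunit that takes electrons from cytochrome c. These 17 probe sets are called the respiratory chain members below. The other 7 are ccmB, ccmFC, ccmFN1 and ccmFN2, which serve the attachment of haem to c-type cytochromes, the intron maturase gene matR, mttB, a gene for a membrane protein related to TatC that the annotation lists as orfX, and ATMG01000. The last is the only open reading frame without an assigned function among the members. It is named by a table of the study alone, and its probe set and that of cox1 stand in the list of differentially expressed genes that the study chose on these samples. No member belonged to complex III or complex V.

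The values are on a log2 scale, centred so that every probe set has a 12-array median of 0. A value of 1 is thus a signal of 2 times that median, and no expression level can be read or compared between genes. Differences were tested with limma over all tested probe sets, and a probe set was called at an adjusted p of at most 0.05 together with a fold change of at least 2. With n = 3 arrays per group the number of arrays limits the precision, and the p-values measure the spread between these samples. In RNA of whole organs, fewer cells of a type and less RNA per cell cannot be told apart.

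Most marker genes went with the organ labels, and those of pollen did not. All 4 floral genes measured, AP1 and SEP1 to SEP3, were up-regulated in flower buds over leaves in both scion and rootstock. So were 6 of 6 tapetum genes and 4 of 4 genes of dividing cells. Tables of the study alone name the probe sets of the 4 floral genes, 4 of the tapetum genes and 1 of the dividing-cell genes. Both measured leaf genes were lower in buds, with median log2 differences of -1.28 in the rootstock and -0.89 in the scion. Both measured pollen genes were lower in buds too, with medians of -1.025 and -1.777, none called. The pollen median was 3.99 on scion leaf replicate 2, 1.905 and 1.66 on scion and rootstock leaf replicate 1, and at most 1.02 elsewhere. In scion leaves 3 of the 4 floral genes were called higher than in rootstock leaves. Since all 4 came from tables that the study made on these samples, nothing is read from this count. All 6 tapetum genes were also higher in scion leaves (median log2 difference 1.75). So were 4 of 4 dividing-cell genes (0.50) and both pollen genes (1.33), none called. The tapetum median was -2.56, -4.33 and -1.67 on the scion leaf arrays and -4.62 to -4.37 on the rootstock leaf arrays. Both leaf genes were lower in scion leaves (median -0.09). These directions are a description, and their part in the leaf values of the members was not tested. Scion flower bud replicate 1 stood closer to the leaves than the other buds, with a median of -0.20 for the leaf genes against -0.88 to -0.58 in the other 5 bud arrays. The leaf arrays with replicate number 3 differed from the remaining leaves, as described for the members below.

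Across the 4 groups, rootstock flower buds tended to hold the lowest values. They had the lowest group mean in 15 of the 24 members (62.5%), against 29.7% of all tested probe sets, and the highest mean in none of the members, against 30.6%. Scion leaves had the highest mean in 14 members (58.3%, all tested 23.1%). This rested on single arrays, since without scion leaf replicate 2 only 4 of 24 members were higher in scion than rootstock leaves. Among the 17 respiratory chain members the lowest mean lay in rootstock buds for 11 and in scion buds for the other 6, and the highest in leaves for 16. The median over all members was -0.23 to -0.12 on the rootstock bud arrays, -0.06 to 0.13 on the scion bud arrays, -0.03 to 0.55 on the scion leaf arrays and -0.13 to 0.47 on the rootstock leaf arrays, so the ranges of the 2 leaf groups coincided widely.

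**Figure D1:**
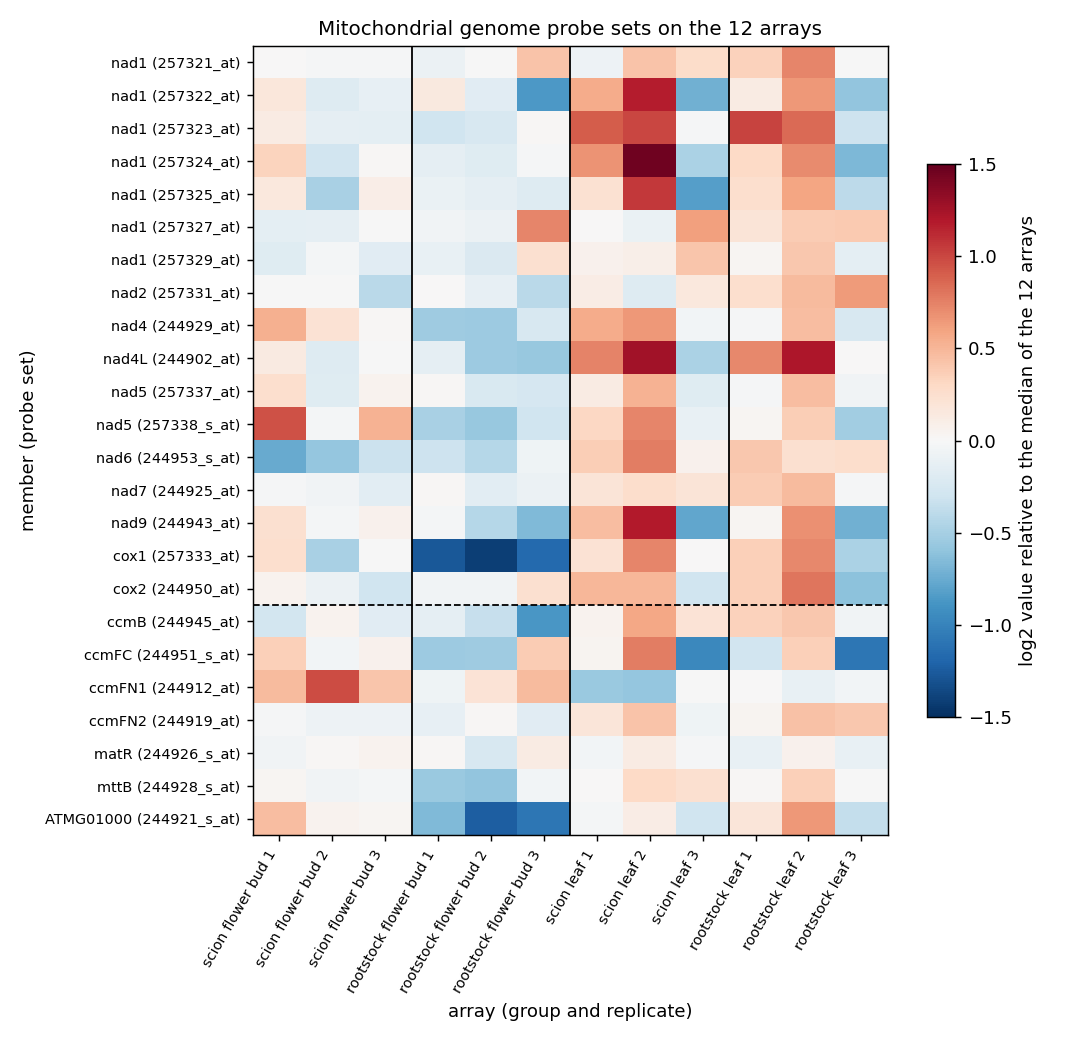
The colour of each cell gives the log2 value of 1 member (rows) on 1 array (columns) relative to the median of the 12 arrays, with red above and blue below it; vertical lines part the 4 groups and the dashed line parts the 17 respiratory chain members from the other 7. The deep blue cells of cox1 and ATMG01000 lie on the 3 rootstock bud arrays, and in many rows leaf replicate 2 is red where leaf replicate 3 is blue.

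In flower buds, scion against rootstock, no member passed the test, against 0.396% of all tested probe sets. The members leaned to higher values in the scion, with 18 of 24 higher and a median log2 difference of 0.16, while the median over all tested probe sets was -0.04. The lean depended on single arrays, since without scion flower bud replicate 1 the count was 15 and the median 0.077, and without scion flower bud replicate 2 they were 17 and 0.25. In 5 members all scion buds lay above all rootstock buds (20.8%, all tested 11.1%), and in none did they all lie below (all tested 14.1%). An unadjusted p under 0.05 was reached by 5 members (20.8%, all tested 11%). Among the 23 members that the array annotation names, which leaves out ATMG01000, each of these counts was 4 (17.4%). The one-way analysis of variance that the methods name was run on the same values and with the same thresholds. Its p-value is for all 4 groups at once, so only the fold change is that of the buds. It called cox1 and ATMG01000, and 2.49% of all tested probe sets. Since both genes stand in the list that the study chose on these samples, nothing is read from this count.

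The widest gap was that of cox1, the core of cytochrome c oxidase, where oxygen is reduced. Its values were 0.25, -0.48 and -0.0005 in the scion buds and -1.27, -1.41 and -1.17 in the rootstock buds. All scion buds were thus higher than all rootstock buds, and the rootstock buds lay close to each other. The difference was 1.20 ± 0.30 (SE), a fold change of 2.30, with an adjusted p of 0.134 from limma. Without scion flower bud replicate 1, the array nearer to leaves in some of the marker genes, it was 1.04, with an adjusted p of 0.540.

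ATMG01000, the open reading frame, showed nearly the same pattern. The scion buds stood at 0.46, 0.05 and 0.03 and the rootstock buds at -0.66, -1.24 and -1.08, again with no overlap. The difference of 1.18 ± 0.26 (SE), 2.26-fold, had the smallest adjusted p of all members in this comparison, 0.0882 from limma. It was 1.04 without scion flower bud replicate 1 (adjusted p = 0.348). Since the study had chosen both cox1 and ATMG01000 on these samples, the size of their differences is not independent evidence.

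Among complex I genes the differences were smaller. One of the probe sets of nad5, a proton-pumping subunit, read 0.95, -0.03 and 0.52 in the scion buds and -0.49, -0.57 and -0.30 in the rootstock buds, with a difference of 0.94 ± 0.30 (SE, adjusted p = 0.239 from limma). The second nad5 probe set differed by 0.20 ± 0.21 (SE, adjusted p = 0.843) and its arrays overlapped, so the probe sets of this gene did not show the same size. For nad4, a related pumping subunit, scion buds held 0.53, 0.22 and 0.01 and rootstock buds -0.54, -0.55 and -0.24. They did not overlap, and the difference was 0.70 ± 0.24 (SE, adjusted p = 0.267).

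The remaining complex I members spread around 0. In nad9 the scion buds also lay above the rootstock buds, by 0.47 ± 0.46 (SE, adjusted p = 0.826), with the nearest arrays of the groups at -0.031 and -0.035. nad6 was lower in the scion, with -0.28 ± 0.19 (SE, adjusted p = 0.680), and the 7 probe sets of nad1 ran from -0.30 to 0.24. For nad2 and nad7 the differences were 0.04 and -0.001, and the 95% confidence intervals of -0.35 to 0.42 and -0.30 to 0.30 lie well within a 2-fold change. cox2, the other complex IV gene, did not follow cox1, with a difference of -0.16 ± 0.33 (SE) and an interval of -0.89 to 0.57.

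Outside the respiratory chain, where 1 of the 7 members is ATMG01000, all were higher in scion buds, with a median of 0.36 (0.55 without rootstock flower bud replicate 3 and 0.24 without scion flower bud replicate 2). The 4 cytochrome c maturation genes ran from 0.03 in ccmFN2 to 0.41 ± 0.21 (SE, adjusted p = 0.510) in ccmFN1, and mttB was at 0.38 ± 0.17 (SE, adjusted p = 0.451). matR, whose product aids the splicing of mitochondrial introns, differed by 0.04 with an interval of -0.24 to 0.31.

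**Figure D2:**
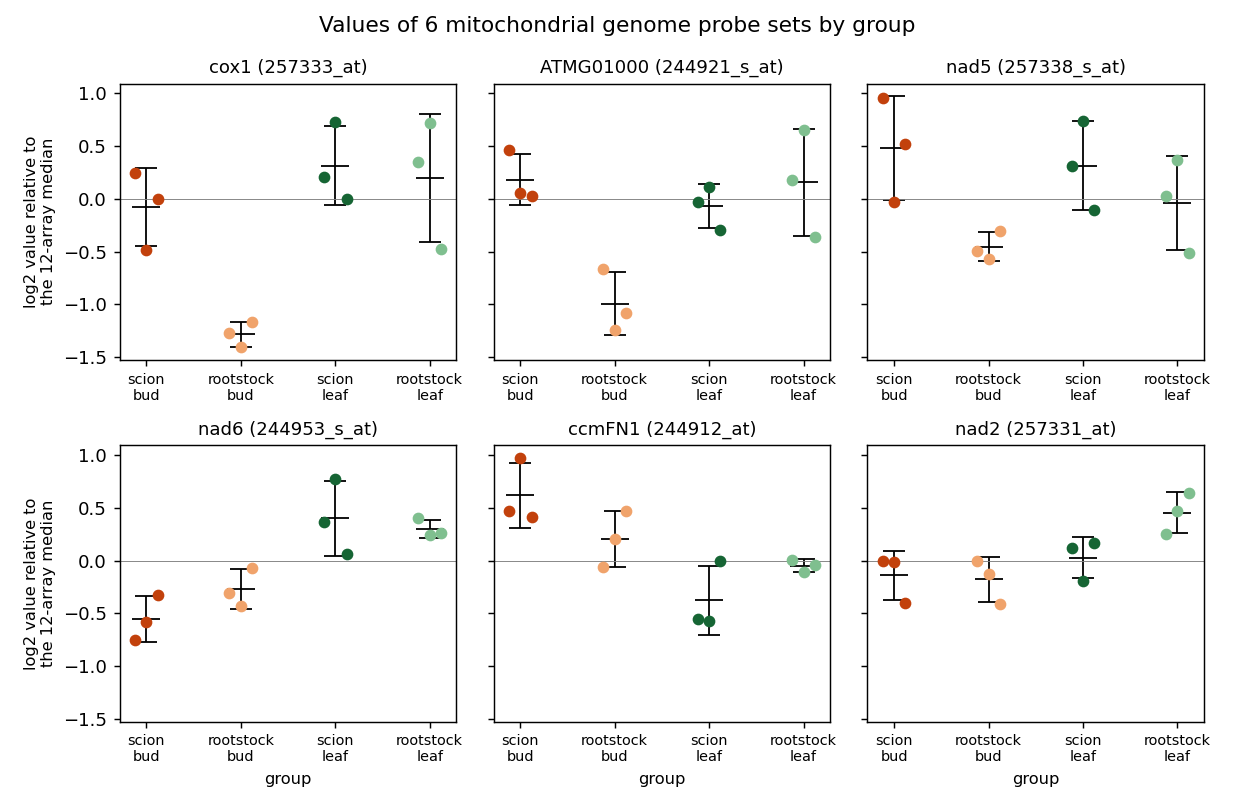
Points are the arrays of each group for 6 members, the vertical axis gives the log2 value relative to the 12-array median, and the black bars give the group mean with its SD (n = 3). In cox1 and ATMG01000 the 3 rootstock buds lie between -1.41 and -0.66, below all 9 other arrays.

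Several measures of the arrays moved with the flower bud comparison. The poly(A) spike-in controls are foreign transcripts that are added to the RNA before labelling. Of their 24 probe sets, 22 (91.7%) had all rootstock buds below all 9 other arrays, the pattern of cox1 and ATMG01000, which 2 of the 24 members (8.33%) and 5.85% of all tested probe sets showed. Their array medians were -1.79, -1.73 and -1.01 in the rootstock buds and -0.58 to 0.64 on the other arrays. They were thus higher in scion than in rootstock buds, by a median of 1.25, while the members differed by 0.16. The 18 probe sets of the hybridization controls, which are added to the labelled sample, had medians of -0.72, 1.04 and 2.72 in the rootstock buds and -0.78 to -0.59 in the scion buds. So the controls of the 2 kinds did not move together. Plastid genome probe sets were also mostly higher in scion buds, 62 of 69 with a median difference of 0.68, and their array medians were -0.45 to -0.40 in scion buds and -1.39, -1.46 and -0.50 in rootstock buds. The control probe set for 25S rRNA read 0.02, 1.05 and 1.55 in scion buds and -2.40, -1.04 and 0.52 in rootstock buds. Both leaf genes (median 0.30) and both pollen genes (median 0.58) were higher in scion buds. The genes of dividing cells and the tapetum genes were lower (medians -0.78 and -0.80), and none of these genes was called. Tables of the study alone name 4 of the tapetum genes and 1 of the dividing-cell genes, so these directions are a description. The part of all these array measures in the values of the members was not tested.

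In leaves, no member passed the test either, against 0.0528% of all tested probe sets. The analysis of variance over the 4 groups, with the fold change of the leaves, called no member (all tested 1.31%). An unadjusted p under 0.05 was reached by 1 member (4.17%, all tested 7.15%). Of the 24, 16 were higher in the scion, and the median was 0.05 against -0.01 over all tested probe sets. The direction rested on single arrays, with 4 higher without scion leaf replicate 2, 5 without rootstock leaf replicate 3 and 20 without rootstock leaf replicate 2. The smallest adjusted p belonged to nad2, a complex I subunit of the membrane arm. Its scion leaves held 0.12, -0.19 and 0.16 and its rootstock leaves 0.25, 0.47 and 0.64. It was the single member in which all scion leaves lay below all rootstock leaves (4.17%, all tested 4.89%), and its difference was -0.43 ± 0.17 (SE, adjusted p = 0.640 from limma). For nad4 the difference was 0.32 ± 0.24 (SE, adjusted p = 0.900), with overlapping arrays. Leaf arrays of equal replicate number varied together, most clearly for numbers 2 and 3. Within the pairs of equal number the scion was higher by 0.57, 0.19 and 0.20 in nad4. In nad5 (257338_s_at) it was higher by 0.28, 0.36 and 0.41. In 5 members the scion was higher in all 3 pairs (20.8%, all tested 16%) and in nad2 it was lower in all (4.17%, all tested 18.8%). With the replicate number as a block within the organ the adjusted p was 0.217 for nad2 and 0.470 for nad4, and no leaf call of a member changed.

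The members with the widest gap in buds were not set apart in leaves. In cox1 the scion leaves read 0.21, 0.73 and 0.0005 and the rootstock leaves 0.35, 0.72 and -0.47, which overlap throughout. The difference was 0.12 ± 0.30 (SE), with an interval of -0.56 to 0.79. ATMG01000 stood at -0.03, 0.11 and -0.29 in scion leaves and 0.18, 0.65 and -0.36 in rootstock leaves, a difference of -0.23 ± 0.26 (SE) with an interval of -0.79 to 0.34. The sign of both changed when single leaf arrays were left out.

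**Figure D3:**
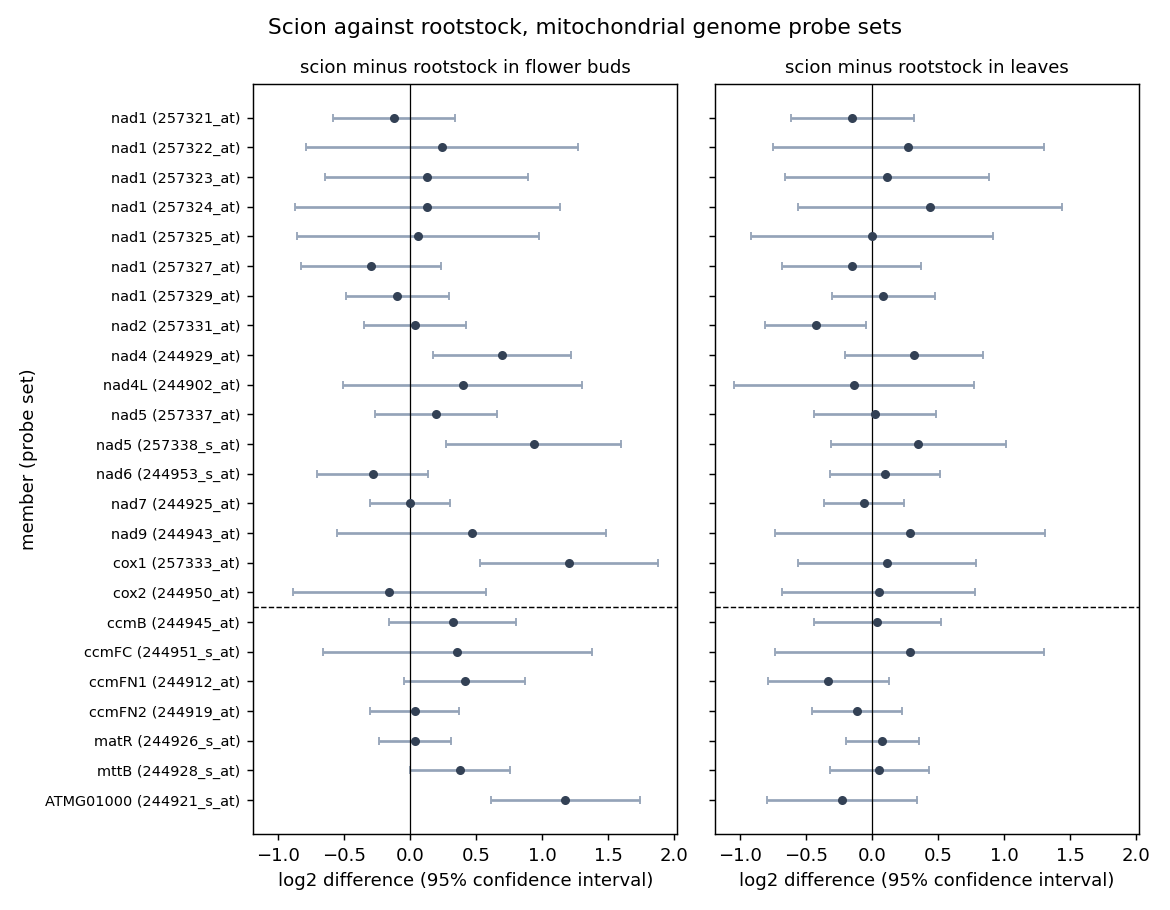
Each point is the log2 difference of scion minus rootstock for 1 member, in flower buds (left) and leaves (right), and the bar is its 95% confidence interval from the fit over 12 arrays. In buds the intervals of cox1, ATMG01000, nad5 (257338_s_at), nad4 and mttB lie clear of 0 before adjustment, and in leaves only that of nad2 does.

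Whether the scion effect differed between the organs was tested directly as the difference of both differences. No member passed, and no tested probe set did (0%), while 1760 of 22746 had an unadjusted p under 0.05. Among the members 3 did so (12.5%, all tested 7.74%). They were ATMG01000 with 1.40 ± 0.36 (SE, adjusted p = 0.295), cox1 with 1.09 ± 0.43 (SE, adjusted p = 0.551) and ccmFN1 with 0.74 ± 0.29 (SE, adjusted p = 0.551), all from limma and all toward a larger scion excess in buds. With the replicate number as a block within the organ ATMG01000 passed (adjusted p = 0.0440, 0.488% of all tested called) and cox1 had an adjusted p of 0.0931. With array weights both passed, at 0.0323 and 0.0313 (2.05% of all tested called). The call thus depended on the fit. Bud arrays of equal number varied together little, and whether they come from the same plant is not stated.

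The organs themselves were compared within the rootstock and within the scion. Both comparisons share their bud or leaf arrays with the comparisons above. The rootstock comparison holds the rootstock buds in which the poly(A) controls were low. In the rootstock, 2 of the 24 members fell in flower buds relative to leaves and none rose, against 25.7% of all tested probe sets called in either direction and 12% called lower. The share of members called (8.33%) was thus below the background. The direction was more uniform than the calls, since 21 of 24 members and all 17 respiratory chain members were lower in buds (all tested 12264 of 22746). These 17 probe sets stand for 10 genes, with 7 of them for nad1. The median of all members was -0.36 against -0.05 over all tested probe sets. It was -0.16 without rootstock leaf replicate 2 and -0.58 without rootstock leaf replicate 3, with 18 and 23 members lower. Of the respiratory chain members 14 and 17 were then lower. In 8 members (33.3%, all tested 27.8%) all rootstock buds lay below all rootstock leaves.

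The members that fell were cox1, by 1.48 ± 0.30 (SE, adjusted p = 0.00278 from limma), and ATMG01000, by 1.15 ± 0.26 (SE, adjusted p = 0.00429). Their rootstock buds, given above, lay below every other array of the set. The poly(A) controls were also lower in rootstock buds than in rootstock leaves, by a median log2 difference of -1.87, and their part in these falls was not tested. Without rootstock leaf replicate 2 the value of ATMG01000 was -0.90 and its call was lost on the fold threshold, and the call of cox1 was kept in each of the 12 fits that left out 1 array. A further 4 members had an adjusted p of at most 0.05 with a smaller change, which makes 6 without the fold threshold (25%, all tested 19.4%). They were nad2 with -0.63 ± 0.17 (SE), nad6 with -0.57 ± 0.19 (SE), ccmB with -0.69 ± 0.22 (SE) and mttB with -0.52 ± 0.17 (SE). nad4L, at -1.06 ± 0.41 (SE), exceeded 2-fold but had an adjusted p of 0.0581.

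In the scion no member was called between buds and leaves, against 18.4% of all tested probe sets, and 2 had an unadjusted p under 0.05 (8.33%, all tested 43.4%). Buds were lower in 20 of 24 members, with a median of -0.24. Without scion leaf replicate 2 these were 15 and -0.11, and without scion leaf replicate 3 they were 22 and -0.33. In 3 members (12.5%, all tested 22%) all buds lay below all leaves. The clearest of these was nad6, a membrane arm subunit of complex I. Its scion buds held -0.75, -0.58 and -0.33 and its scion leaves 0.36, 0.77 and 0.07. The difference of -0.95 ± 0.19 (SE, adjusted p = 0.00338 from limma) fell just short of 2-fold (adjusted p alone called 13.5% of all tested probe sets lower). nad7 came next in the respiratory chain class, with -0.30 ± 0.14 (SE, adjusted p = 0.122). In the scion cox1 differed by -0.39 ± 0.30 (SE) and ATMG01000 by 0.25 ± 0.26 (SE), with overlapping arrays.

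ccmFN1 was 1 of the 4 members that were higher in scion buds than in scion leaves, and 1 of the 3 in the rootstock. It encodes 1 piece of a haem lyase subunit that is split between genes in Arabidopsis. Scion buds held 0.47, 0.97 and 0.41 and scion leaves -0.55, -0.58 and -0.01. All buds were higher (4.17% of members, all tested 24.3%), by 1.00 ± 0.21 (SE, adjusted p = 0.00446 from limma), just under the fold threshold (adjusted p alone called 19.2% of all tested higher). In the rootstock the buds read -0.06, 0.21 and 0.47 and the leaves 0.01, -0.11 and -0.04, and the difference was 0.25 ± 0.21 (SE, adjusted p = 0.359) with overlap. The gene for the partner piece, ccmFN2, pointed the other way, with -0.24 in the scion and -0.38 in the rootstock, neither called.

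The comparison of respiratory chain genes with open reading frames rests on 1 open reading frame, so it is a comparison of ATMG01000 with 17 probe sets. Its difference between scion and rootstock buds, 1.18, lay just below that of cox1 at 1.20 and above the other 16, which ran from -0.30 to 0.94. Since ATMG01000 and cox1 entered the list of the study through these samples, their place in this order is a description. In leaves its -0.23 lay above nad2 alone. Rootstock buds minus leaves gave it -1.15, and only cox1 was lower. Taken as classes, the medians of the respiratory chain and of the 7 other members were 0.12 and 0.36 in the bud comparison, 0.09 and 0.04 in the leaf comparison, -0.35 and -0.38 for buds minus leaves in the rootstock, and -0.30 and -0.02 in the scion. With 1 array left out the respiratory chain median in the bud comparison ran from -0.023 (without scion flower bud replicate 1) to 0.27 (without scion flower bud replicate 2), and was 0.037 without rootstock flower bud replicate 3. In the leaf comparison it ran from -0.12 (without rootstock leaf replicate 3) to 0.32 (without scion leaf replicate 3). For buds minus leaves it was -0.11 and -0.59 without rootstock leaf replicates 2 and 3, and -0.15 and -0.55 without scion leaf replicates 2 and 3, so the order of the classes was not fixed. No test was made of these class differences.

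In the respiratory chain members the leaf arrays mostly varied more than the bud arrays. The median SD within groups was 0.435 in leaves and 0.221 in buds for the respiratory chain members, and 0.271 and 0.179 over all tested probe sets. The other 7 members had 0.232 in leaves and 0.272 in buds. The leaf SD was the larger in 18 of the 24 members (75%), which is near the 74.9% of all tested probe sets. In 14 of the 24 members both arrays of leaf replicate 3 lay below the other 4 leaf arrays (58.3%, all tested 16.7%), and in 15 both arrays of leaf replicate 2 lay above the other 4 (62.5%, all tested 13.9%). One example was nad9, with 0.46, 1.19 and -0.78 in scion leaves and 0.03, 0.69 and -0.72 in rootstock leaves.

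Other respiratory chain genes showed the order of nad9. nad4L read 0.75, 1.26 and -0.48 in scion leaves and 0.72, 1.22 and 0.01 in rootstock leaves. cox2 read 0.49, 0.50 and -0.30 in the scion and 0.35, 0.80 and -0.61 in the rootstock. Replicate 3 was the lowest leaf of each group in both genes. Array measures moved as well. The 25S rRNA control was 1.40 and 1.34 on the replicate 3 leaf arrays and -1.78 to -0.02 on the others, and the actin control's 3′ minus 5′ value was -0.15 and -0.17 against 0.37 to 0.73. Their part in the values of the members was not tested.

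The 7 probe sets of nad1 did not behave alike on these arrays. In Arabidopsis nad1 is assembled by trans-splicing from separately transcribed pieces, and its introns are partly removed with the help of matR. The annotation gives the gene but not the exon or intron of each probe set. The mean of the replicate 3 leaves minus that of the other leaves was -1.36 to -1.11 in 4 probe sets, 257322_at to 257325_at, with both replicate 3 arrays lowest in each. In 257321_at and 257329_at it was -0.22 and -0.01, with overlap, and in the latter replicate 3 was the highest scion leaf and the lowest rootstock leaf. In 257327_at it was 0.38. None of the 7 was called in any comparison.

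**Figure D4:**
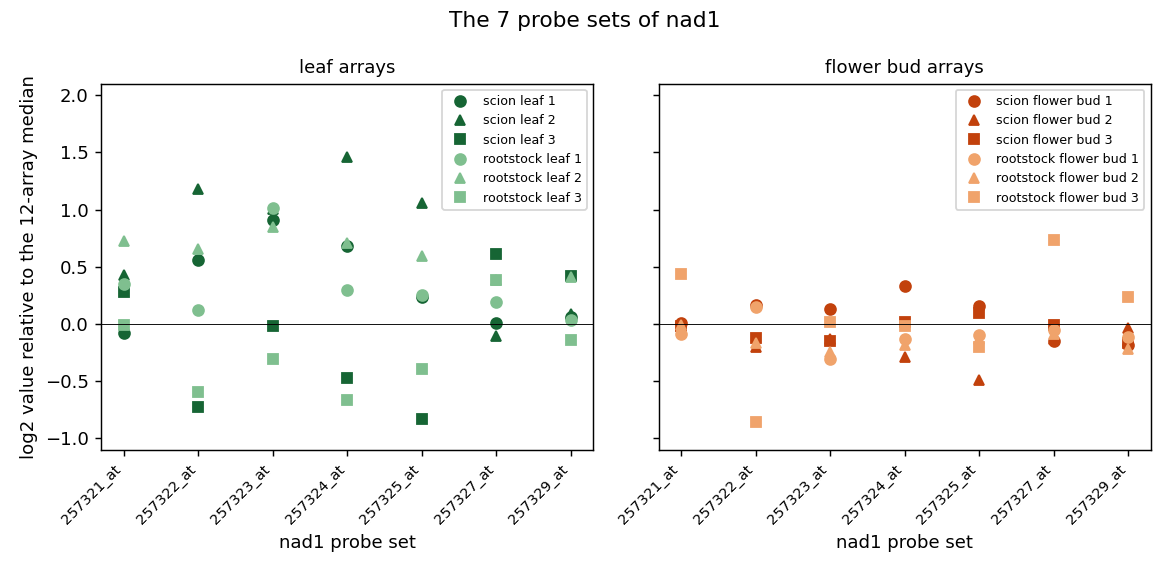
The log2 value relative to the 12-array median is shown for the 7 probe sets of nad1 on the 6 leaf arrays (left) and the 6 bud arrays (right), with colour for scion or rootstock and shape for the replicate. Squares, which mark replicate 3, lie at the bottom of the leaf panel for 257322_at to 257325_at and not for 257327_at.

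Genes of the nucleus that build complex I leaned the other way. Of 16 nuclear complex I genes with a probe set of their own, 14 were higher in rootstock buds than in rootstock leaves, with a median of 0.48, and none was called. B14, with 0.73 ± 0.11 (SE, adjusted p = 5.18e-04), and B12-1, with 0.58 ± 0.10 (SE, adjusted p = 0.00101), had the smallest adjusted p-values. Between scion and rootstock buds 15 of the 16 were lower in the scion, with a median of -0.17, and none was called. On the leaf arrays 9 of the 16 had both replicate 2 arrays lowest (56.2%, all tested 15%). In 7 both replicate 3 arrays were highest (43.8%, all tested 26.8%). Both directions were the reverse of those of most mitochondrial members.

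The other nuclear lists gave few calls, none of them between scion and rootstock. Complex II (5 probe sets) and complex V (5) had no called member, and the latter was higher in rootstock buds in 5 of 5, with a median of 0.43. Of 13 genes for complex III and cytochrome c, CYTC-2, which encodes a cytochrome c, fell in rootstock buds by 1.51 ± 0.35 (SE, adjusted p = 0.00542), with -0.95 ± 0.35 (SE, adjusted p = 0.0600) in the scion. Of 7 nuclear complex IV genes, COX5C-3 rose in buds by 1.44 ± 0.15 (SE, adjusted p = 4.07e-05) in the rootstock and by 1.27 ± 0.15 (SE, adjusted p = 1.76e-04) in the scion, opposite in sign to cox1. COX5B-1, of the same complex, was at -0.77 in scion against rootstock buds and at -0.97 in leaves, with adjusted p-values of 0.0653 and 0.0623.

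Among genes for the expression of the mitochondrial genome, 1 of 7 was called. mtPNPase, the polynucleotide phosphorylase that trims and degrades mitochondrial RNA, rose in buds by 1.39 ± 0.18 (SE, adjusted p = 1.78e-04) in the rootstock and by 1.40 ± 0.18 (SE, adjusted p = 3.12e-04) in the scion. Of 5 genes for alternative respiration, NDC1, a type II NAD(P)H dehydrogenase of mitochondria and plastids, fell in rootstock buds by 1.04 ± 0.13 (SE, adjusted p = 1.57e-04). In the list of 5 mitochondrial stress response genes, AT12CYS rose in buds by 3.07 in the rootstock and 3.19 in the scion and UPOX rose by 1.56 ± 0.53 (SE, adjusted p = 0.0357) in the rootstock, with 1.27 ± 0.53 (SE, adjusted p = 0.0907) in the scion, while DTX3 fell, with -1.83 and -1.81. Between scion and rootstock the list was higher in the scion in 5 of 5 in buds, with a median of 0.83, and in 4 of 5 in leaves, with a median of 0.77, and none was called. The array annotation gives 5 of the 11 listed stress response genes a probe set of their own. A further 3, which tables of the study alone name, were left out. The direction of the list is given as a description.

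The plastid genome was the closest comparison for an organelle genome. Its probe sets were far lower in buds than in leaves, with medians of -1.88 in the rootstock and -1.08 in the scion. In the rootstock 51 of 69 were called lower (all tested 2731 of 22746), and in the scion 33 (all tested 1800 of 22746). The medians of the mitochondrial members had the same sign and were nearer to 0, at -0.36 and -0.24. Between scion and rootstock leaves the plastid median was -0.08. On the leaf arrays the plastid and the mitochondrial medians did not run in parallel, since replicate 3 held the highest plastid medians of each group, 0.84 and 0.89, and the lowest mitochondrial ones, -0.03 and -0.13.

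**Figure D5:**
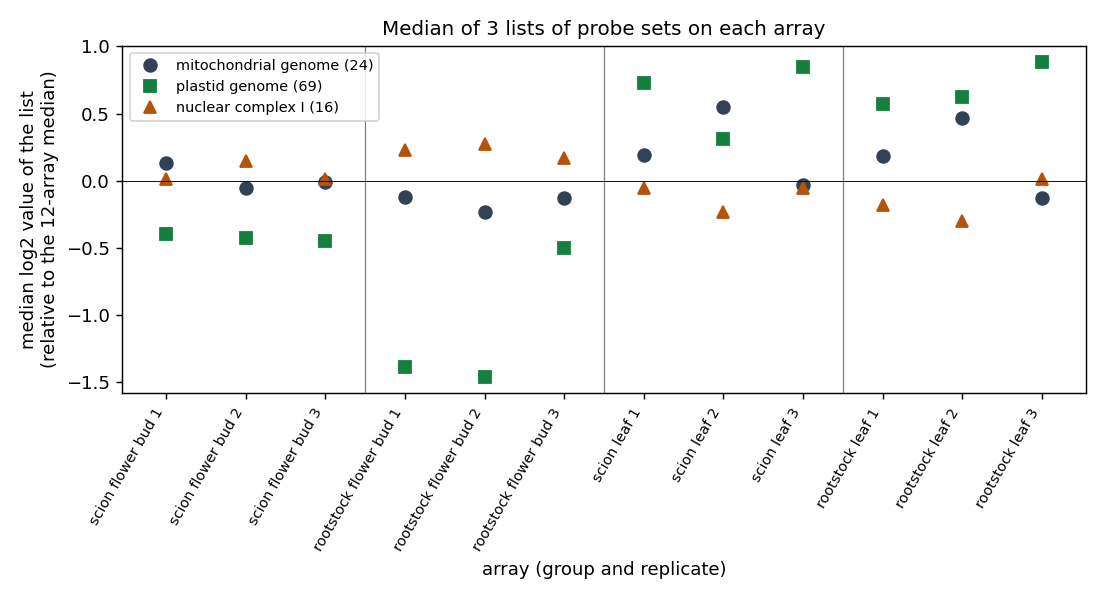
Each point is the median log2 value, relative to the 12-array median, of the 24 mitochondrial, 69 plastid or 16 nuclear complex I probe sets on 1 array. The mitochondrial median is highest on both replicate 2 leaf arrays (0.55 and 0.47), where the nuclear complex I median is lowest (-0.23 and -0.30).

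A further 12 probe sets were annotated with a mitochondrial gene and a second gene, a nuclear one in 11 cases and another mitochondrial gene in 1. Chromosome 2 of Col-0 carries a large copy of the mitochondrial genome, and such probe sets cannot assign their signal to either genome, so none is named. Of these, 10 of 12 were higher in scion buds than in rootstock buds (median 0.43, none called). In rootstock buds 11 of 12 were lower than in leaves (median -0.55), with 3 called lower (all tested 12%). Probe sets annotated to nuclear genes alone in that stretch numbered 20. One of them, AT2G07708, rose in scion buds over rootstock buds by 1.08 ± 0.18 (SE, adjusted p = 0.0388), and the median of the 20 was -0.02. The same stretch gave 1 call between the organs, AT2G07718, which fell in buds, with -1.85 ± 0.49 (SE) in the rootstock and -2.05 ± 0.49 (SE) in the scion. Whether these probe sets also read mitochondrial transcripts was not tested, and the same limit holds for members with an s in their probe set name, which the array design marks as matching more than 1 transcript.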

How the data were processed

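The authors hybridized 1 sample per ATH1 chip and summarized the intensities with RMA in GeneSpring GX. The deposited values are log2 values, centred to a 12-array median of 0 per probe set, and no column belonged to another series. Then 64 control probe sets were removed and 22746 tested with limma 3.58.1 in R 4.3.3, as 4 group means over 12 arrays with Benjamini-Hochberg adjustment, called at 0.05 and 2-fold (the organ interaction at 0.05 alone). Tables were made with pandas 2.3.3. The fit was tested on simulated data. Probe sets were matched through the platform annotation and RefSeq gene names, and 13513 have 1 gene and 503 several. Members and lists were chosen with earlier results of these data known. Named are all respiratory chain members by value or range, the members in tables of the study, called members, and otherwise up to 2 with the smallest adjusted p per class and list, while ccmB, ccmFN1, ccmFN2, matR and mttB were named after their values had been seen. After removal of group means, leaf arrays of equal replicate number correlated at 0.342, 0.714 and 0.816 over all probe sets, and bud arrays at 0.0234, 0.0741 and 0.201. Rootstock leaf replicate 1 correlated more with scion leaf replicate 2, at 0.396, than with scion leaf replicate 1. The alternatives were other scalings, array weights, replicate blocks, other filters and the omission of each array. Labelling for this kind of array starts at poly(A) tails, which plant mitochondrial transcripts carry only briefly; raw intensities were not used here.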

Additional observations from a re-analysis of the deposited data

How the results depend on the processing

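The fall of cox1 in rootstock buds relative to leaves kept its call under every alternative run, and that of ATMG01000 under all except the omission of rootstock leaf replicate 2. The bud calls between scion and rootstock depended on the processing. No member was called in the limma fit, and 2 were called with the replicate number as a block within the organ (cox1, adjusted p = 0.0148, and ATMG01000, adjusted p = 0.0105). Array weights called 3 (also nad5 257338_s_at), and quantile normalization 1 (ATMG01000, adjusted p = 0.0493). The one-way analysis of variance that the methods name called 2, with a p-value that is for all 4 groups at once. No member was called in any of the 12 fits that left out 1 array. Whether flower bud arrays of equal number come from the same plant is not stated. In leaves, where numbers 2 and 3 varied together most, the block changed no leaf call of a member. Of the organ difference in the scion effect, 1 member was called with the replicate block within the organ (ATMG01000, adjusted p = 0.0440) and 2 with array weights. With the replicate block over all arrays, nad4L joined the calls lower in rootstock buds (3 members). Buds minus leaves in the rootstock gave 4 members with array weights and 6 with no fold threshold, and 1 to 4 when 1 array was left out (1 without rootstock leaf replicate 2, 4 without rootstock leaf replicate 3). In the scion, 1 member was called with array weights and 1 with arrays centred on the median (ccmFN1 in both), 2 after quantile normalization and 2 with no fold threshold (ccmFN1 and nad6), and 0 to 4 with 1 array left out (4 without scion leaf replicate 3). The median of all members in the organ difference ran from -0.072 to 0.37 with 1 array left out, and in leaves from -0.10 to 0.23 against 0.05. The value of cox1 in leaves turned to -0.11 with array weights and to -0.09 and -0.22 without scion leaf replicate 2 and rootstock leaf replicate 3, and that of ATMG01000 to 0.021 without rootstock leaf replicate 2, with -0.48 as its lowest value with 1 array left out. Over all tested probe sets the calls in buds numbered 90, with 0 to 286 when 1 array was left out and up to 639 with array weights, and in leaves 12, with 7 to 55 and 0 to 297. Calls between the organs were within 1.5 times of 5852 and 4190, except with no fold threshold (9669 and 7439), and the organ difference gave 0, with up to 34 and 467. The cause of these changes was not tested.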
